A study of Mus musculus with 12 samples.

Results

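The amino acid transporter genes of the mouse were followed across the NICD1/Akt model of cholangiocarcinoma (CCA), in which bile duct-like tumors grow out of the liver. A gene was a member if it codes for a protein, carries a symbol of the solute carrier families Slc1, Slc3, Slc6, Slc7, Slc36, Slc38 or Slc43 followed by "a" and a number, and reached a CPM (counts scaled to a common library total) of 1 in at least 3 of the 12 libraries. Of 61 such genes that the counts cover, 34 were members, among 21807 genes in all. The other 27 were below the rule, 10 of them with 0 counts in every library. Just inside it were Slc1a1, at 1 CPM in 3 libraries, and Slc6a19 and Slc7a11, in 4 libraries each, and just outside were Slc1a3, Slc6a16 and Slc6a17, in 2 libraries each. The rule read levels in all libraries together, so 5 members (Slc1a1, Slc6a14, Slc6a19, Slc7a6 and Slc7a11) entered through NICD1/Akt libraries, with under 3 of the 6 control libraries at 1 CPM. For those 5 the rule itself favored higher levels in NICD1/Akt livers, and counts of members that passed in a comparison are therefore also given for the other 29. This was not done for other scalings or sets of libraries.

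Bulk RNA was measured by sequencing in 4 groups of 3 libraries each: NICD1/Akt livers at 2 weeks (libraries 33, 34 and 35), WT control livers of that stage (30, 31 and 32), NICD1/Akt livers at 3 weeks (1, 2 and 3) and WT control livers of that stage (10, 11 and 12). All mice are labelled C57BL/6J. The study's methods describe the injected mice as 5-week-old males. Hydrodynamic tail vein injection (HTVi) gave them plasmids for the intracellular domain of Notch1 (NICD1), for a myristoylated and thereby active AKT (myr-AKT), and for Sleeping Beauty, a transposase that puts both transgenes into the DNA of some hepatocytes. The tissue is labelled liver (CCA tumor) in the NICD1/Akt groups and liver in the controls, which had no injection. Nothing in the labels says that the libraries of a group come from separate mice, and p-values therefore describe how these libraries vary.

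Amino acids cross cell membranes only through carrier proteins. Heavy chains of the SLC3 family bring light chains of the SLC7 family to the cell surface, where the pair exchanges one amino acid for another: Slc7a5 takes in large neutral amino acids such as leucine, and Slc7a11 takes in cystine against glutamate. SLC1 and SLC38 carriers use the sodium gradient to concentrate glutamate, glutamine, alanine and serine, SLC6 carriers use sodium and chloride, SLC36 carriers use protons, and SLC43 carriers let neutral amino acids pass down their gradient. Hepatocytes take up glutamine, alanine and the cationic amino acids for urea and glucose synthesis, while growing cells are known for high Slc7a5, Slc1a5 and Slc7a11.

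Gene counts summed to 13136892 to 19594839 per library. The genes of the transgenes were higher at 3 weeks: the range of Notch1 was 324 to 412 CPM in tumors and 42.1 to 45.5 CPM in late controls, and that of Akt1 was 594 to 850.3 CPM in tumors and 74.5 to 85.3 CPM in late controls. At 2 weeks the library labelled control 32 went against its label, with 106 CPM of Notch1, 381 CPM of Akt1 and 1875 CPM of Spp1, a bile duct gene, where controls 30 and 31 had 49.1 and 53.8, 90.9 and 90.1, and 56.6 and 53.7 CPM. Library 35 stood apart within its own group, with 927 CPM of Akt1 against 285 and 325 in libraries 33 and 34. Ddx3y, a gene of the Y chromosome, was at 0 to 0.399 CPM in all libraries of 2 weeks other than control 32 (57.2 CPM) and at 52.2 to 126 CPM in all libraries of 3 weeks, so sex and stage cannot be told apart. In NICD1/Akt libraries 33, 34 and 35 these low values go against the males that the study's methods describe. Results that rest on libraries 32 or 35 are given with and without them.

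At 3 weeks transporter genes changed in both directions: Slc43a2, Slc38a1 and Slc7a5 were among those that rose, and Slc38a3, Slc38a4 and Slc6a13 among those that fell. Of the 34 members 18 were higher and 10 lower in NICD1/Akt than in control livers (edgeR quasi-likelihood test, adjusted p under 0.05 over the 13408 genes tested), where 38.9% of all genes tested were higher and 33.1% lower. Among the 29 members at 1 CPM in at least 3 control libraries 13 were higher and 10 lower, shares near those of all genes. The median log2 fold change was 0.38 over the 34 members, and the same with the genes at 0 counts in controls set to their lower bound, 0.19 over the 29, and 0.06 over all genes tested. The libraries of the groups did not overlap for 16 members that were higher and 11 that were lower, where 37.6% and 40.3% of all genes did not. Those 16 include all 5 members that had entered through NICD1/Akt libraries, for which the rule favored this outcome. The split depends on how libraries are scaled: with library size alone in place of TMM the median of all genes moved by 0.70 on the log2 scale and 24 members were higher and 2 lower. Of all 13408 genes tested, 9076 were then higher and 1287 lower. The median log2 fold change was then 1.09 over the 34 members, 0.89 over the 29 and 0.77 over all genes. In bulk tissue fewer cells of a type and less RNA per cell cannot be told apart.

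**Figure D1:**
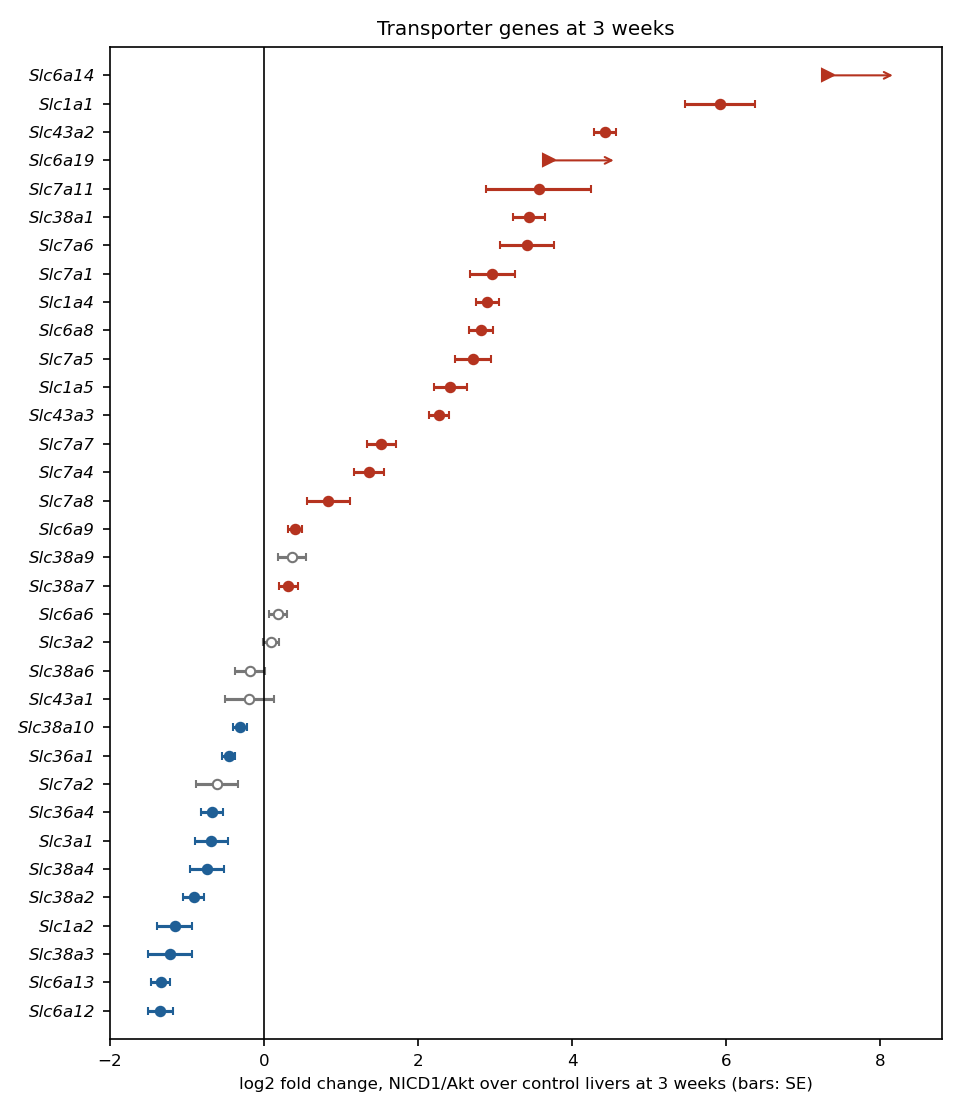
Log2 fold change of each of the 34 members at 3 weeks, NICD1/Akt over control livers, with its standard error (horizontal bars, 3 libraries per group). Red points passed the test as higher, blue points as lower, open grey points did not pass, and triangles with arrows are lower bounds for genes with 0 counts in all 3 controls, such as Slc6a14 at 159-fold or more.

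Cell type markers moved with these changes. At 3 weeks the summed level of 15 hepatocyte markers was 35056 to 50516 CPM in NICD1/Akt livers and 136843 to 144148 CPM in controls, with 13 of 15 lower and 0 higher. The sum of 11 biliary markers was 3577 to 4186 CPM in NICD1/Akt livers and 279 to 348 CPM in controls, with 8 of 9 tested higher and 1 lower. Also higher in NICD1/Akt livers was the sum of 15 cell cycle genes, 449 to 598 CPM in NICD1/Akt livers and 30.8 to 38.3 CPM in controls, with 15 of 15 passing as higher. For stellate cell and fibroblast markers, with 9 of 12 higher, the sum was 2650.4 to 3577.5 CPM in NICD1/Akt livers and 317 to 432 CPM in controls, and for monocyte and macrophage markers, with 11 of 12 higher, 376 to 557 CPM in NICD1/Akt livers and 129.8 to 173 CPM in controls. Kupffer cell markers went the other way, with 7 of 7 lower and a sum of 372 to 570.2 CPM in NICD1/Akt livers and 924 to 1208 CPM in controls, and so did erythroid markers, with 4 of 4 tested lower and a sum of 48.6 to 87.4 CPM in NICD1/Akt livers and 188 to 208 CPM in controls. The part of these shifts in the transporter changes was not tested.

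**Figure D2:**
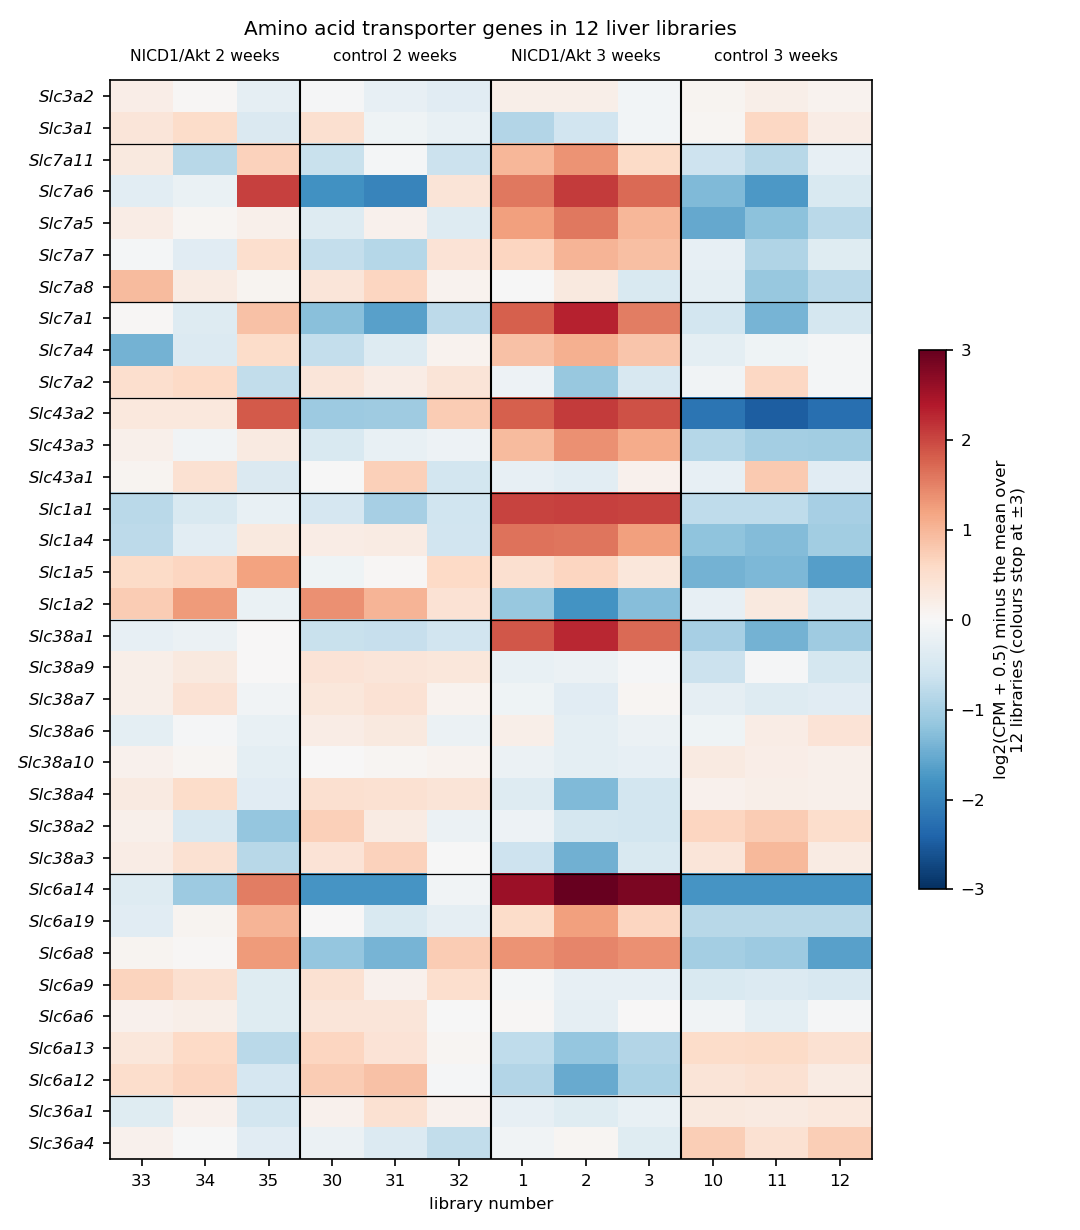
Each row is a member and each column a library; colour is log2(CPM + 0.5) minus the gene's mean over the 12 libraries, with black lines between groups and between transporter classes. Libraries 35 and 32 are redder than the rest of their groups for Slc43a2, Slc6a8, Slc7a6, Slc7a7 and Slc6a14.

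Against controls of the same stage, the SLC7 light chains Slc7a5, Slc7a7 and Slc7a8 were higher at 3 weeks, while their heavy chain did not pass the test. The other 2 light chains, Slc7a6 and Slc7a11, were higher too, but had entered through NICD1/Akt libraries, which favored that direction. Slc7a5, the carrier for leucine and other large neutral amino acids, had 22.1, 28.6 and 18.9 CPM in NICD1/Akt livers and 2.85, 3.66 and 5.001 CPM in controls. The groups were well apart, and the log2 fold change was 2.71 ± 0.23 (SE, n = 3 per group, edgeR adjusted p 1.97e-05). Slc3a2, the heavy chain that carries these light chains to the surface, had 66.8, 66.2 and 55.02 CPM in NICD1/Akt livers and 62.5, 66.3 and 63.0 CPM in controls. Its groups overlapped, and its log2 fold change of 0.09 ± 0.10 did not pass (edgeR adjusted p 0.438).

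Per length, the light chains came closer to the level of Slc3a2 in every NICD1/Akt liver of 3 weeks than in any control of that stage. Summed over the 5 light chains, CPM per kb of exon was 0.797, 1.06 and 0.953 times that of Slc3a2 in NICD1/Akt livers of 3 weeks and 0.285, 0.186 and 0.293 times in their controls. Slc7a5 alone was 0.315, 0.411 and 0.326 times Slc3a2 in these tumors and 0.0433, 0.0525 and 0.0755 times in controls. At 2 weeks the sum of light chains was 0.533, 0.458 and 0.903 times Slc3a2 in NICD1/Akt libraries 33, 34 and 35 and 0.384, 0.532 and 0.678 times in controls 30, 31 and 32. The ratio was highest in library 35 and in library 32 of their groups.

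**Figure D3:**
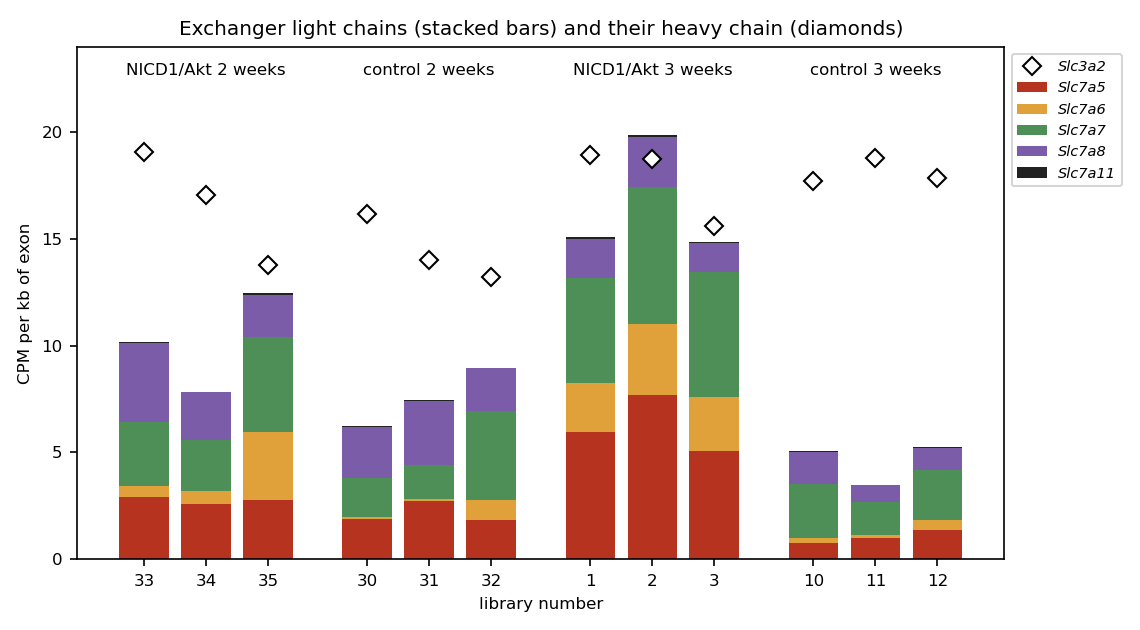
Stacked bars give CPM per kb of exon of the 5 light chains in each library and open diamonds that of their heavy chain Slc3a2. The bars include Slc7a6 and Slc7a11, which had entered through NICD1/Akt libraries. The diamonds lie between 13 and 20 in every library, while the bars reach 14 to 20 in NICD1/Akt livers of 3 weeks and stay under 6 in their controls.

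Slc7a11, the cystine-glutamate exchanger that feeds glutathione synthesis, was scarce everywhere. It had 34, 48 and 18 counts in NICD1/Akt livers of 3 weeks and 1, 0 and 3 counts in controls, or 1.29, 1.77 and 0.839 CPM in NICD1/Akt livers and 0.0863, 0 and 0.250 CPM in controls. No control library reached the lowest tumor library, and the ratio of the summed counts, scaled by library, was 11.7 with a 95% exact counting interval of 4.43 to 43.7. The log2 fold change was 3.56 ± 0.68 (edgeR adjusted p 0.00153). Slc7a6, which exchanges cationic for neutral amino acids, had 10.49, 15.2 and 11.4 CPM in NICD1/Akt livers and 0.949, 0.609 and 2.17 CPM in controls (log2 fold change 3.41 ± 0.36, edgeR adjusted p 5.66e-05). Its relative Slc7a7 had 16.3, 21.3 and 19.5 CPM in NICD1/Akt livers and 8.45, 5.22 and 7.84 CPM in controls (1.52 ± 0.19, edgeR adjusted p 0.000151). Slc7a8, which shares substrates with Slc7a5, changed least of the 5: it had 9.21, 11.6 and 6.71 CPM in NICD1/Akt livers and 7.59, 4.004 and 5.17 CPM in controls. Those groups overlapped, and its log2 fold change of 0.84 ± 0.28 (edgeR adjusted p 0.0233) lost its call in 7 of 13 alternatives. Controls of 2 weeks had 12.1, 15.0 and 10.0 CPM of Slc7a8, so its rise holds against late controls only.

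Members with a motif were looked for in promoters, and 3 hold the core of the amino acid response element in a promoter window. This element, TGATGNAA, binds ATF4 and its partners when amino acids run short. All 3 members were higher at 3 weeks, beside 18 of all 34 members and 38.9% of all genes tested. Of the 3, Slc7a11 had entered through NICD1/Akt libraries. A link between motif and direction was not tested. RefSeq windows of 300 bases (250 before and 50 after a transcription start, GRCm38.p6) were at hand for 25 members. The element, searched on both strands, lay in 4 of their 42 windows, 2 of which share a site of Slc7a7, and in 3.97% of 32851 windows of all genes. It is in capitals in the windows below, which are shown because Slc7a11 carries it as a pair in opposite directions close to the start. The first lies at chr3:50443564-50443863, the second at chr11:20332664-20332963 and the third at chr14:54417895-54418194, all on the minus strand and written 5′ to 3′ in the direction of the gene.
Slc7a11: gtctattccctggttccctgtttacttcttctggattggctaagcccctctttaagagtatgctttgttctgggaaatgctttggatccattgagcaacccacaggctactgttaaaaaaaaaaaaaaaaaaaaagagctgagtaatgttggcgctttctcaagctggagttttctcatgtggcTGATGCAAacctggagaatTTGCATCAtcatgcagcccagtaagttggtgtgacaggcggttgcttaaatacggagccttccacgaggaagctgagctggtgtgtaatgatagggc
Slc1a4: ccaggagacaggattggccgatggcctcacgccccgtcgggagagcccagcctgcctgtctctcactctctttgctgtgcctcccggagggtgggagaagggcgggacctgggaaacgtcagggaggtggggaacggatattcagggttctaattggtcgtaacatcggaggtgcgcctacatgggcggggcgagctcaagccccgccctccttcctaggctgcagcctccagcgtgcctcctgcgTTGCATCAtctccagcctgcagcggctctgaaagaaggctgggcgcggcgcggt
Slc7a7: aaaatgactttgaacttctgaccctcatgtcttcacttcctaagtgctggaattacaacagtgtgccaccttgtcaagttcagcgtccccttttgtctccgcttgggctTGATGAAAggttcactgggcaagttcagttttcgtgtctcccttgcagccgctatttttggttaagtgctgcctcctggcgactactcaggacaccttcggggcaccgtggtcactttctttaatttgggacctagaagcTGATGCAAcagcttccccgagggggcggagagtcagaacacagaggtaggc
Counted from the start, the capitals begin at -66 and -47 for Slc7a11, at -4 for Slc1a4 and at -141 and -1 for Slc7a7. A further Slc7a7 window overlaps the one shown and holds the same site as its match at -1, there at -243 from another start. The antioxidant response element core TGACNNNGC, bound by NRF2, lay in 9 of the 42 windows, 2 of which share a site of Slc7a6, and in 12.4% of all windows. These belong to 7 members (Slc36a1, Slc38a2, Slc43a1, Slc6a13, Slc6a9, Slc7a1 and Slc7a6), of which 3 were higher, 3 lower and 1 not past the test at 3 weeks. A match is a run of letters and was not tested as a binding site.

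The heavy chain Slc3a1, which pairs with Slc7a9 to take up cystine and cationic amino acids in kidney and gut, was lower at 3 weeks. It had 28.6, 35.7 and 50.2 CPM in NICD1/Akt livers and 55.6, 81.7 and 62.4 CPM in controls. The groups did not overlap, and the log2 fold change was -0.69 ± 0.21 (edgeR adjusted p 0.0184), a call lost without NICD1/Akt library 1 (adjusted p 0.0561) and without control 11 (0.0586), while library-size scaling turned its sign (0.02). Slc7a9 had 0 counts in all 12 libraries. A count of 0 allows up to 3 counts, or 0.153 to 0.228 CPM depending on the library, and such limits and the intervals given here cover counting error only.

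Of the cationic amino acid carriers, the widespread Slc7a1 rose and the abundant hepatocyte form Slc7a2 did not pass the test. Slc7a1 had 24.1, 34.6 and 19.9 CPM in NICD1/Akt livers and 4.31, 2.18 and 4.42 CPM in controls of 3 weeks. Every tumor library was above every control (log2 fold change 2.96 ± 0.29, edgeR adjusted p 4.25e-05). Slc7a2 had 452, 228 and 360.1 CPM in NICD1/Akt livers and 465, 771 and 486 CPM in controls, groups that did not overlap. Its log2 fold change was -0.61 ± 0.27 (edgeR adjusted p 0.0757), and it passed as lower with DESeq2 (adjusted p 0.0355), while library-size scaling turned its sign (0.08). Per kb of exon Slc7a2 remained the more abundant: Slc7a1 was 0.0422, 0.12 and 0.0438 times Slc7a2 in NICD1/Akt livers and 0.00735, 0.00224 and 0.0072 times in controls. Slc7a4, a relative with no established substrate, had 5.27, 6.04 and 5.08 CPM in NICD1/Akt livers and 2.07, 2.35 and 2.501 CPM in controls (1.36 ± 0.19, edgeR adjusted p 0.000294).

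The SLC43 class held the member with the largest rise among those with 10 or more counts in the controls. Slc43a2, which lets leucine, phenylalanine and methionine pass down their gradient, had 250.04, 309 and 271 CPM in NICD1/Akt livers of 3 weeks and 15.1, 12.4 and 14.4 CPM in controls. That was 21.5-fold higher (log2 fold change 4.43 ± 0.14, edgeR adjusted p 2.09e-07). By CPM per kb it ranked 6 of the 34 members in NICD1/Akt livers of 3 weeks and 20 in their controls. Slc43a3, a family member that carries purine nucleobases, had 141, 188 and 158 CPM in NICD1/Akt livers and 39.6, 35.3 and 34.9 CPM in controls (2.27 ± 0.13, edgeR adjusted p 2.24e-06). Slc43a1, the third of the class and a carrier of the same neutral amino acids as Slc43a2, had 5.61, 5.27 and 7.31 CPM in NICD1/Akt livers and 5.52, 11.8 and 5.17 CPM in controls, with overlapping groups (-0.19 ± 0.32, edgeR adjusted p 0.604).

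In the SLC1 class Slc1a4 and Slc1a5 were higher and Slc1a2 lower, and Slc1a1, which had entered through NICD1/Akt libraries, was higher as well. Slc1a4, a neutral amino acid exchanger for alanine, serine and cysteine, had 46.2, 45.3 and 34.7 CPM in NICD1/Akt livers and 5.95, 5.57 and 6.84 CPM in controls (log2 fold change 2.90 ± 0.15, edgeR adjusted p 1.48e-06). Slc1a5, the glutamine exchanger, had 6.78, 7.73 and 6.15 CPM in NICD1/Akt livers and 1.47, 1.57 and 1.17 CPM in controls (2.42 ± 0.21, edgeR adjusted p 2.28e-05). Both were separated from their controls, but the call on Slc1a5 was lost when the controls of both stages were used together (0.97, edgeR adjusted p 0.169) and held when library 32 was left out of them (1.49, adjusted p 0.0255). Slc1a1, a glutamate and cysteine carrier of kidney, gut and neurons, had 94, 99 and 76 counts in NICD1/Akt livers and 1, 1 and 0 counts in controls. The ratio of the sums, scaled by library, was 62.9 with a 95% counting interval of 17.2 to 522. Slc1a2, the glutamate carrier of hepatocytes around the central vein, had 56.98, 36.05 and 51.9 CPM in NICD1/Akt livers and 106, 155 and 90.1 CPM in controls, which was 2.23-fold lower (-1.16 ± 0.23, edgeR adjusted p 0.00187).

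The SLC38 class held the most abundant transporters in every group, and 4 of its 8 members fell at 3 weeks while 2 rose. Slc38a3, which moves glutamine into and out of hepatocytes, had 850.4, 477 and 939.9 CPM in NICD1/Akt livers and 1669, 2541 and 1547 CPM in controls (log2 fold change -1.22 ± 0.28, edgeR adjusted p 0.00449). Slc38a4, a carrier of alanine and other small amino acids, had 626, 324 and 551 CPM in NICD1/Akt livers and 895, 913 and 907 CPM in controls (-0.74 ± 0.22, edgeR adjusted p 0.0161). Library 2 was the lowest for both genes, and no tumor library reached a control. With library-size scaling the values were -0.53 for Slc38a3, -0.05 for Slc38a4, -0.21 for Slc38a2 and -0.46 for Slc1a2, and none of these 4 passed (edgeR adjusted p 0.0626 to 0.83). Slc38a2, whose transcript is known to rise when cells lack amino acids, had 267, 205 and 201 CPM in NICD1/Akt livers and 458, 497 and 422 CPM in controls (-0.91 ± 0.14, edgeR adjusted p 0.000489). Slc38a10 had 117, 108 and 112 CPM in NICD1/Akt livers and 158, 151 and 146 CPM in controls (-0.31 ± 0.09, edgeR adjusted p 0.0121), a direction that library-size scaling turned (0.39).

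Against these 4, Slc38a1 rose. This sodium-coupled glutamine carrier of proliferating and neural cells had 27.1, 36.01 and 24.1 CPM in NICD1/Akt livers and 3.28, 2.35 and 3.08 CPM in controls, 10.8-fold higher (log2 fold change 3.44 ± 0.21, edgeR adjusted p 2.86e-06). Per kb of exon it was 0.052, 0.09 and 0.0614 times Slc38a2 in NICD1/Akt livers and 0.00367, 0.00242 and 0.00375 times in controls, so Slc38a2 stayed the more abundant. Slc38a7, a glutamine exporter of the lysosome, just passed the test (0.32 ± 0.13, edgeR adjusted p 0.0487) and lost the call in 11 of 13 alternatives. Slc38a9, the arginine sensor of the lysosome, had 9.40, 9.68 and 10.8 CPM in NICD1/Akt livers and 6.90, 10.8 and 7.502 CPM in controls and did not pass (0.36 ± 0.18, edgeR adjusted p 0.104), nor did Slc38a6 (-0.18 ± 0.20, edgeR adjusted p 0.437). Without control library 11 Slc38a9 passed as higher (0.57, edgeR adjusted p 0.00988).

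Of the 7 SLC6 members 4 were higher and 2 lower at 3 weeks, and 2 of those higher, Slc6a14 and Slc6a19, had entered through NICD1/Akt libraries and had no count in the late controls. Slc6a14, a carrier of neutral and cationic amino acids found in lung and colon epithelium, had 254, 519 and 249 counts in NICD1/Akt livers of 3 weeks and 0 in each of the 3 controls, at least 159-fold higher when 3 counts are taken as the floor for the control group. Slc6a19, the main neutral amino acid carrier of kidney and gut brush borders, had 21, 43 and 19 counts in NICD1/Akt livers and again 0 in the controls, at least 12.9-fold higher. Both passed the test (edgeR adjusted p 5.45e-05 for Slc6a14 and 0.00122 for Slc6a19). Their levels differed: Slc6a14 had 9.62, 19.1 and 11.6 CPM in NICD1/Akt livers of 3 weeks, and Slc6a19 had 0.796, 1.58 and 0.885 CPM. Of 5 kidney tubule markers the other 4 reached at most 0.444 CPM in any library, while Umod had 26.0, 34.7 and 38.3 CPM in NICD1/Akt livers of 3 weeks and 0, 0.261 and 0.0834 CPM in their controls. Aqp2, the defining channel of the collecting duct, was at 0 in all 12 libraries, and the part of kidney-like transcripts in these results was not tested.

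The creatine carrier Slc6a8 rose as well, with 50.2, 54.2 and 50.6 CPM in NICD1/Akt livers of 3 weeks and 9.23, 8.79 and 5.92 CPM in controls (log2 fold change 2.82 ± 0.15, edgeR adjusted p 1.67e-06). The betaine carrier Slc6a12 and the GABA and taurine carrier Slc6a13, both known from hepatocytes, fell by similar factors. Slc6a12 had 34.8, 22.5 and 33.4 CPM in NICD1/Akt livers and 84.5, 88.8 and 76.8 CPM in controls, 2.54-fold lower (edgeR adjusted p 0.000122). Slc6a13 had 95.5, 71.9 and 88.0 CPM in NICD1/Akt livers and 236, 242 and 223 CPM in controls, 2.53-fold lower (edgeR adjusted p 2.98e-05). Neither gene had a tumor library within the range of the controls. The taurine carrier Slc6a6, with 111, 91.2 and 109.9 CPM in NICD1/Akt livers and 102, 89.6 and 107 CPM in controls, did not pass (0.19 ± 0.12, edgeR adjusted p 0.179). The glycine carrier Slc6a9 had 33.8, 29.6 and 29.6 CPM in NICD1/Akt livers and 25.3, 26.3 and 24.8 CPM in controls (0.41 ± 0.09, edgeR adjusted p 0.00414), a call lost with the controls of both stages together, at -0.19 with library 32 and 0.07 without it (edgeR adjusted p 0.559 and 0.802).

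Both proton-coupled members fell. Slc36a1, which exports amino acids from lysosomes and takes up proline and glycine, had 34.1, 31.4 and 35.03 CPM in NICD1/Akt livers of 3 weeks and 49.6, 49.5 and 50.8 CPM in controls (log2 fold change -0.46 ± 0.08, edgeR adjusted p 0.0011). Slc36a4, a carrier of proline and tryptophan, had 16.0, 18.1 and 13.3 CPM in NICD1/Akt livers and 29.2, 24.03 and 29.3 CPM in controls (-0.68 ± 0.14, edgeR adjusted p 0.00246). Both signs turned with library-size scaling, to 0.25 for Slc36a1 and 0.03 for Slc36a4, so these falls hold relative to the bulk of genes only, and the sign of Slc38a6, which had not passed, turned too (0.52). The call on Slc36a4 was lost with the controls of both stages together (-0.35, edgeR adjusted p 0.435).

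Summed over the class, the SLC38 members had 1184 to 1926 CPM in NICD1/Akt livers of 3 weeks and 3061 to 4143 CPM in controls, and all 34 members together had 2568 to 3459 CPM in NICD1/Akt livers and 4370.2 to 5831 CPM in controls. The SLC43 members went the other way, with 397 to 502 CPM in NICD1/Akt livers and 54.5 to 60.2 CPM in controls. By CPM per kb the most abundant member was Slc38a3 in each of the 4 groups, followed by Slc38a4, at 143 ± 46.5 and 117 ± 37.0 in NICD1/Akt livers of 3 weeks and 364 ± 103 and 212 ± 2.22 in their controls (SD, n = 3). Within NICD1/Akt livers the ranges of both genes overlapped (90.4 to 178 and 75.9 to 147), and within the late controls they did not (293 to 482 and 210.0 to 214).

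At 2 weeks none of the 31 members tested passed in NICD1/Akt against control livers, as 0 of all 13041 genes tested did (0.0%). At an unadjusted p under 0.05 edgeR gave 3 members higher and 0 lower, where 4.9% of all genes were higher and 3.69% lower. DESeq2, with 34 members tested, gave 4 higher and 1 lower at that level and 0 after adjustment. Of all 16526 genes with DESeq2, 1509 passed at that level in either direction, and 11 were higher and 11 lower after adjustment. Slc1a1, Slc6a19 and Slc7a11 were too low to be tested with edgeR. The 3 members higher with edgeR were Slc7a1, Slc38a1 and Slc43a3. Slc7a1 had 6.71, 4.96 and 12.5 CPM in NICD1/Akt livers and 2.46, 1.803 and 3.63 CPM in controls (log2 fold change 1.63 ± 0.44, edgeR adjusted p 0.52). Slc38a1 had 5.91, 6.14 and 7.12 CPM in NICD1/Akt livers and 4.26, 4.18 and 4.56 CPM in controls (0.57 ± 0.20, edgeR adjusted p 0.52), and Slc43a3 had 79.8, 67.7 and 87.3 CPM in NICD1/Akt livers and 52.2, 61.5 and 65.2 CPM in controls (0.40 ± 0.15, edgeR adjusted p 0.52). These 3 were also the members higher with no overlap between groups, against 1 lower, and 7.38% and 8.69% of all genes. Slc36a1 and Slc1a5 followed by p, with 31.4, 44.8 and 27.5 CPM in NICD1/Akt livers and 44.7, 56.2 and 44.8 CPM in controls for Slc36a1 and with 7.37, 7.77 and 11.6 CPM in NICD1/Akt livers and 4.33, 4.90 and 7.49 CPM in controls for Slc1a5, with groups that overlapped for both genes.

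Libraries 32 and 35 moved the values at 2 weeks. Slc43a2 had 89.0, 89.3 and 258 CPM in NICD1/Akt libraries 33, 34 and 35 and 33.4, 34.03 and 122 CPM in controls 30, 31 and 32. Slc6a8 had 20.5, 19.7 and 47.6 CPM in NICD1/Akt livers and 8.39, 6.99 and 33.1 CPM in controls, and Slc7a6 had 2.46, 2.66 and 14.7 CPM in NICD1/Akt livers and 0.532, 0.433 and 4.25 CPM in controls. In each of the 3 genes library 35 was near the NICD1/Akt livers of 3 weeks and the library labelled control 32 above NICD1/Akt libraries 33 and 34. Slc6a14 had 12, 4 and 113 counts in NICD1/Akt libraries 33, 34 and 35 and 0, 0 and 14 in controls 30, 31 and 32. With both libraries left out, a choice made after seeing the data, 4 members passed as higher with edgeR: Slc43a2 (log2 fold change 1.39, adjusted p 0.00097), Slc6a8 (1.37, adjusted p 0.00474), Slc7a6 (2.37, adjusted p 0.02) and Slc7a1 (1.43, adjusted p 0.036). Over all 12906 genes tested, 625 were then higher and 176 lower, and Slc7a6 had entered through NICD1/Akt libraries. Against the 5 controls of both stages other than 32, Slc43a2 (2.77, adjusted p 0.0188) and Slc6a8 (1.94, adjusted p 0.0151) passed, where 867 of 12988 genes were higher and 167 lower. Biliary markers summed to 4768 CPM in library 35 and 2065 CPM in library 32, with 1197 and 1388 CPM in the other NICD1/Akt libraries and 99.7 and 102 CPM in the other controls of 2 weeks, and hepatocyte markers to 75077 and 119841 CPM in libraries 35 and 32.

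The effect at 3 weeks differed from that at 2 weeks for 10 members: the log2 effect was higher at 3 weeks for 8 and lower for 2, where 15.0% and 15.8% of all 13829 genes tested passed in these directions (edgeR, interaction term in a fit of all 12 libraries). Among the 29 members the counts were 6 and 2, and over all 34 with library-size scaling 14 and 0, beside 3520 and 297 of 13829 genes with that scaling. The 8 were Slc38a1 (difference of log2 effects 2.76 ± 0.26), Slc43a3 (1.76 ± 0.20), Slc1a4 (2.99 ± 0.41), Slc7a5 (2.23 ± 0.33), Slc1a5 (1.61 ± 0.37), Slc43a2 (3.10 ± 0.75), Slc1a1 and Slc6a19, with edgeR adjusted p between 0.00053 and 0.0444, and the 2 were Slc36a4 (-1.17 ± 0.26) and Slc6a13 (-1.22 ± 0.42). The call on Slc6a13 held in 4 of 17 alternatives and that on Slc6a19 in 6, and Slc1a1 lost its call without control 30 (adjusted p 0.0777) or 32 (0.0523). The counts were 12 and 8 without library 35, 6 and 1 without library 32, and 11 and 7 without both. Over all genes they were 3307 and 3494 of 13948, 1423 and 1528 of 14069, and 3144 and 3344 of 13945. Since sex and stage cannot be told apart, these differences belong to the groups as labelled and not to time alone.

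**Figure D4:**
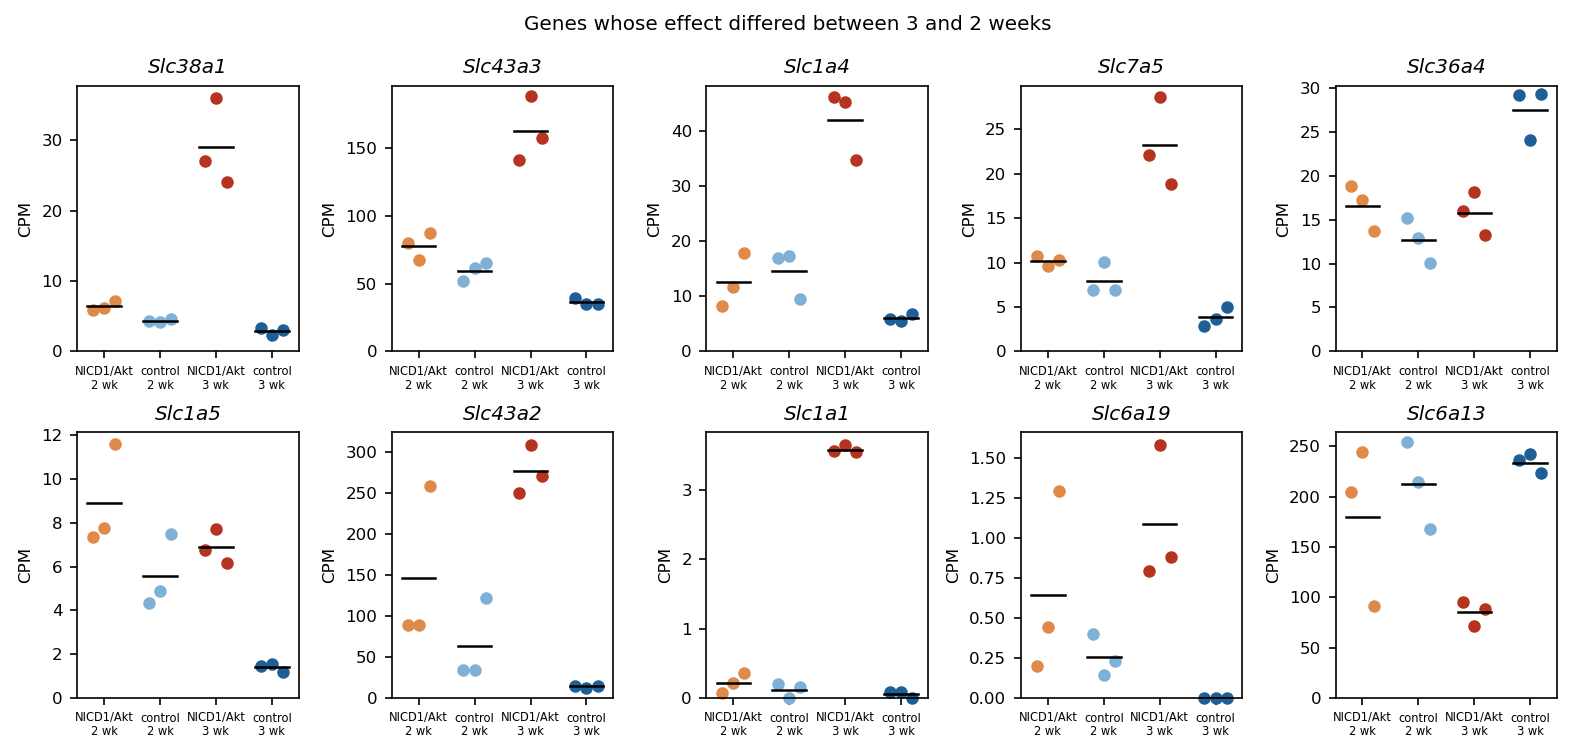
CPM in each library (points) and group means (black lines) for the 10 members whose effect differed between stages, in NICD1/Akt and control livers at 2 weeks (left pair) and 3 weeks (right pair). Slc38a1 is highest in its NICD1/Akt libraries of 3 weeks, at 24.1 to 36.01 CPM, and also lower in late than in early controls. Slc1a5 is lowest in its controls of 3 weeks, at 1.17 to 1.57 CPM.

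The stages were also compared within each condition. In NICD1/Akt livers 6 members were higher and 4 lower at 3 than at 2 weeks, where 11.1% and 17.4% of all genes were (5 and 4 of the 29, and with library-size scaling 9 and 3 of all members beside 3435 and 940 of 13829 genes). Slc38a1 (log2 fold change 2.18 ± 0.18, edgeR adjusted p 5.44e-05), Slc1a1 (3.92 ± 0.58), Slc1a4 (1.73 ± 0.29), Slc7a1 (1.69 ± 0.38), Slc7a5 (1.18 ± 0.22) and Slc43a3 (1.05 ± 0.14) rose. Slc1a2 (-2.13 ± 0.38), Slc6a12 (-1.40 ± 0.31), Slc6a13 (-1.08 ± 0.30) and Slc38a4 (-0.90 ± 0.26) fell. Slc1a2 had 56.98, 36.05 and 51.9 CPM in NICD1/Akt livers of 3 weeks and 216, 308 and 111 CPM in those of 2 weeks. It fell in controls too, with 106, 155 and 90.1 CPM at 3 weeks and 329, 255 and 171 CPM at 2 weeks (-1.10 ± 0.37, edgeR adjusted p 0.0364). Its stage difference did not pass (edgeR adjusted p 0.142). Without library 35, 12 members were higher and 10 lower, and without both 32 and 35, 13 and 10. Over all genes the counts were 3125 and 3564 of 13948, and 3851 and 3815 of 13945.

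In controls 1 member was higher and 12 lower at 3 than at 2 weeks, where 17.4% and 20.4% of all genes were (1 and 11 of the 29). Slc1a5 was at 1.47, 1.57 and 1.17 CPM in controls of 3 weeks and 4.33, 4.90 and 7.49 CPM in those of 2 weeks (log2 fold change -1.99 ± 0.28, edgeR adjusted p 0.000397). Slc1a5 had 6.78, 7.73 and 6.15 CPM in NICD1/Akt livers of 3 weeks and 7.37, 7.77 and 11.6 CPM in those of 2 weeks (-0.38 ± 0.25, edgeR adjusted p 0.263). Slc7a5, Slc1a4, Slc38a1 and Slc43a3 passed in both conditions, higher in late NICD1/Akt livers and lower in late controls. In controls the log2 fold changes of Slc7a5 and Slc1a4 were -1.05 ± 0.24 and -1.25 ± 0.30 (edgeR adjusted p 0.00645 and 0.00784). Those of Slc38a1 and Slc43a3 were -0.58 ± 0.19 and -0.70 ± 0.14 (edgeR adjusted p 0.0379 and 0.00303). Slc36a4, the only member higher in late controls, was at 29.2, 24.03 and 29.3 CPM in controls of 3 weeks and 15.2, 12.9 and 10.1 CPM in those of 2 weeks (1.11 ± 0.18, edgeR adjusted p 0.00106), and did not pass between NICD1/Akt livers (-0.07 ± 0.18, edgeR adjusted p 0.802). Slc43a2 was 4.52-fold lower in late controls (log2 fold change -2.18, edgeR adjusted p 0.0104), and without the library labelled control 32 the log2 fold change was -1.29 (adjusted p 0.0348). The genes Slc7a8, Slc6a9, Slc38a7 and Slc38a9 were lower in late controls too, at log2 fold changes of -1.15 to -0.64. These comparisons share their libraries with each other and with those between conditions.

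Genes around the transporters were read from lists, whose counts at 3 weeks stand beside 38.9% of all genes higher and 33.1% lower, with a median of 0.06. Of 25 genes of the amino acid response, which ATF4 drives when amino acids run short, 12 were higher and 9 lower in NICD1/Akt livers of 3 weeks, with a median log2 fold change of 0.29. Phgdh, the entry enzyme of serine synthesis, had 2099 counts in NICD1/Akt livers and 2 in controls of 3 weeks, a scaled ratio of 491 with a 95% counting interval of 136 to 4055. Aldh18a1, an enzyme of proline synthesis, rose by 3.47, the leucine sensor Sesn2 by 1.91 and Vldlr, a lipoprotein receptor, by 2.40 on the log2 scale (edgeR adjusted p 1.91e-06 to 3.6e-06). Sesn2 was low in late controls, with 6.81, 7.23 and 5.83 CPM there and 23.2, 26.3 and 26.8 CPM in controls of 2 weeks. In NICD1/Akt livers of 3 weeks Sesn2 had 23.8, 22.6 and 22.6 CPM, so its rise holds against late controls only. Aldh18a1 was above the controls of both stages. Cebpg, Fgf21, Eif4ebp1 and Chac1 did not pass (edgeR adjusted p 0.113 to 0.534). Atf4 itself, named after its values were seen, was lower, with 110.4, 111 and 103 CPM in NICD1/Akt livers and 187, 148 and 196 CPM in controls (-0.59, edgeR adjusted p 0.00267).

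In the list of 27 genes of amino acid sensing by mTORC1, the kinase complex that couples amino acids to growth, 7 were higher and 10 lower, with a median of -0.18. Rragd, a GTPase that recruits the complex to lysosomes, rose by 4.38, and Sesn1 and Castor2, of the sensor families for leucine and arginine, by 1.45 and 1.41 on the log2 scale, while Lamtor2 of the lysosomal anchor fell by 0.67 (edgeR adjusted p 2.17e-07 to 0.000218). Sesn1 had 15.2, 15.2 and 19.0 CPM in NICD1/Akt livers of 3 weeks, 6.81, 7.92 and 4.92 in their controls and 21.8, 27.3 and 22.3 in controls of 2 weeks. Castor2 had 8.75, 9.06 and 10.4 CPM in these NICD1/Akt livers, 3.36, 3.48 and 4.67 in late controls and 6.06, 6.27 and 10.3 in controls of 2 weeks. Rragd, at 31.2 to 38.4 CPM, was above the controls of both stages (1.67 to 5.18 CPM). Nprl2, Lamtor3, Nprl3 and Sesn3 did not pass (edgeR adjusted p 0.0546 to 0.226). Of 16 genes that turn cystine into glutathione and use it, 3 were higher and 9 lower (median -0.52). The late controls stood apart for this list, which summed to 3388 to 5145 CPM in controls of 3 weeks and 2371 to 2957 CPM in those of 2 weeks. Gclc, the first enzyme of glutathione synthesis, named after its values were seen, had 241, 323 and 207 CPM in NICD1/Akt livers of 3 weeks and 998, 509 and 1081 CPM in their controls, and 258, 245 and 278 CPM in controls of 2 weeks. Gss, the second enzyme of glutathione synthesis, fell by 0.87, Gpx1 by 1.59 and Txnrd1 by 0.97, and the extracellular Ggt5 rose by 1.32 (edgeR adjusted p 5.11e-05 to 0.000669). Ggt5 had 4.13, 3.39 and 3.73 CPM in NICD1/Akt livers of 3 weeks, 1.64, 1.48 and 1.75 in their controls and 4.79, 3.75 and 3.32 in controls of 2 weeks. Gpx4, Oplah, Nqo1 and Nfe2l2 did not pass (edgeR adjusted p 0.0594 to 0.764).

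Of 16 genes of glutamine and glutamate use that were tested, 5 were higher and 10 lower, with a median of -1.16. Glud1 and Got2, which join glutamate to the citric acid cycle, fell by 1.48 and 1.39 (edgeR adjusted p 2.97e-05 and 5.41e-05), and Oat did not pass (-0.38, edgeR adjusted p 0.118). Gls2, the glutaminase of hepatocytes, named after its values were seen, fell by 1.66. Of 20 genes of branched-chain and aromatic amino acid breakdown 2 were higher and 15 lower (median -1.17): Dld, Hibch and Dbt fell by 0.97, 1.38 and 1.33, and Bckdk, the kinase that shuts the branched-chain dehydrogenase off, rose by 1.59 (edgeR adjusted p 2.95e-05 to 7.15e-05). Bckdk had 16.5, 18.3 and 16.1 CPM in NICD1/Akt livers of 3 weeks, 5.09, 5.92 and 7.25 in their controls and 15.8, 15.4 and 16.7 in controls of 2 weeks. Bcat2, Tat and Ppm1k did not pass (edgeR adjusted p 0.0565 to 0.344).

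Of 13 tested transporters and partners outside the rule 4 were higher and 4 lower (median 0.00). Cltrn, which Slc6a19 needs to reach the surface in kidney, had 433 counts in NICD1/Akt livers of 3 weeks and 1 in controls, a scaled ratio of 202 with a 95% counting interval of 36.1 to 8015. Slc6a20a, a proline carrier, had 96 counts in NICD1/Akt livers and 0 in controls, at least 15.0-fold higher. The aromatic amino acid carrier Slc16a10 and the vesicular glutamate carrier Slc17a8 fell by 1.05 and 2.27 on the log2 scale (edgeR adjusted p 7.19e-05 and 0.000244). Mfsd12, Slc15a2, Ctns and Slc6a20b did not pass (edgeR adjusted p 0.0808 to 0.957). At 2 weeks no gene of these 6 lists passed the test.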

How the data were processed

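Total RNA was sequenced from stranded poly(A) libraries. The authors deposited raw read counts per Ensembl gene, 1 table per stage. The study's methods name trimming, STAR alignment to mm10 and counting over exons, whereas the submitters' processing notes list GRCm39, STAR 2.7 and Subread 2.0.6; which of them made the counts, and whether counting used strand, is not given in the sources used here, so reads of overlapping genes on opposite strands may be mixed. Symbols were found for 21573 of 21807 IDs. Counts were normalised by TMM and tested with the quasi-likelihood test of edgeR 4.0.16 (R 4.3.3) after removal of low genes, with Benjamini-Hochberg adjustment over all genes tested. The fit of a stage used only its 6 libraries, and the stage difference and the comparisons within a condition on all 12. Printed CPM use TMM over 12 libraries, so fold changes need not equal ratios of CPM. CPM per kb uses the union of exons (GENCODE M21). Bounds for genes at 0 use a floor of 3 counts over the group, and ratios of few counts have exact 95% intervals. Alternatives were DESeq2 1.42.0, RLE factors, library size alone, no filter, 1 fit of 12 libraries, other control sets and each library left out, and 2 were added after seeing the data: membership by control libraries, and leaving out libraries 32 and 35. The members and lists were chosen with earlier results of these data known. The rule for named genes gave library values to Slc7a11, Slc7a5, Slc38a4, the heavy chains, the 10 members with the highest mean CPM, the 5 that rose most and the 5 that fell most at 3 weeks, the 5 with the smallest p at 2 weeks and those whose effect differed between stages; other members were added to complete their class. From each list it took up to 4 genes with the smallest adjusted p at 3 weeks and up to 4 not past the test. Some genes of the lists are not reported here. Replicate libraries differed by more than counting noise.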

Additional observations from a re-analysis of the deposited data

Results flagged for a closer look

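The effect of NICD1/Akt differed between 3 and 2 weeks, by the interaction test of edgeR, for 10 transporters. The log2 effect at 3 weeks minus that at 2 weeks was 2.76 for Slc38a1, 1.76 for Slc43a3, 2.99 for Slc1a4, 2.23 for Slc7a5, 1.61 for Slc1a5, 3.10 for Slc43a2, 4.90 for Slc1a1 and 5.87 for Slc6a19, and it was -1.17 for Slc36a4 and -1.22 for Slc6a13. The values of Slc1a1 and Slc6a19 rest on few counts and depend on the prior count of the fit. All 10 comparisons include the library labelled control 32, in which Notch1, Akt1 and Spp1 were above the other controls of its stage.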

How the results depend on the processing

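Of 28 members that passed at 3 weeks 16 passed in each of the 13 alternatives, as did 6 of 10 stage differences, 8 of 10 within NICD1/Akt livers and 9 of 13 within controls in 17 alternatives each. With library size alone, 2 members were lower at 3 weeks, beside 1287 of 13408 genes. The stage difference gave 14 members higher and 0 lower, beside 3520 and 297 of 13829 genes. With this scaling the sign turned for Slc36a1 (0.25), Slc36a4 (0.033), Slc38a10 (0.39), Slc38a6 (0.52), Slc3a1 (0.021), Slc7a2 (0.084) and Slc43a1 (0.51) at 3 weeks and for Slc36a1 (0.55) in the stage difference. With all 6 controls the 3-week value turned for Slc38a7 (-0.16), Slc6a9 (-0.19), Slc38a9 (-0.20) and Slc6a6 (-0.14), and without library 32 among them for Slc6a6 alone (-0.01). RLE factors and no filter on low counts each gave 1 lower stage difference. At 2 weeks 2 members passed, both higher, against the 5 controls other than library 32, and 4, all higher, without libraries 32 and 35. Over all genes 867 were higher and 167 lower in the first setting, and 625 and 176 in the second. Leaving both out gave 18 stage differences, 7 of them lower, and 23 members within NICD1/Akt livers, 13 higher and 10 lower. Over all 13945 genes the stage difference then gave 3144 higher and 3344 lower, and NICD1/Akt livers 3851 and 3815. With each library left out in turn, the counts ranged from 26 to 28 at 3 weeks, from 7 to 20 for the stage difference (6 to 12 higher, 1 to 8 lower), from 8 to 22 within NICD1/Akt livers (6 to 12 higher, 2 to 10 lower) and from 9 to 15 within controls (1 to 2 higher, 8 to 13 lower). Over all genes, 4928 to 5209 were higher and 4043 to 4357 lower at 3 weeks, of 13474 to 13684 tested. The other comparisons tested 13920 to 14084 genes. For the stage difference 1203 to 3307 were higher and 1201 to 3494 lower. Within NICD1/Akt livers the ranges were 668 to 3125 and 1317 to 3564, and within controls 1862 to 2815 and 1942 to 3416. The highest counts of the stage difference and within NICD1/Akt livers came without library 35, as they did over all genes. The cause was not tested. Where a group was left with few libraries, the spread was taken from all libraries of the fit. No paired analysis was possible because the library numbers differ between groups. Depth limits Slc7a11, Slc1a1 and Slc6a19, which were under 2 CPM in most libraries.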
